A study of Mus musculus with 2 samples.

Results

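The genes described here carry the TGF-beta signal in microglia, the resident macrophages of the brain. The 10 members were chosen by name as ligand, activation, receptor, Smad and inhibitor genes: Tgfb1, Nrros, Itgav, Tgfbr1, Tgfbr2, Smad2, Smad3, Smad4, Smad7 and Ski. All 10 have a single entry among the 31053 listed features, and all passed a minimum of 10 CPM in both libraries. CPM is a gene's count of UMIs, the barcodes of single captured molecules, scaled to a common library total. They are described here to set the loss of Sall1, a transcription factor of microglia that depends on TGF-beta, beside the state of the pathway itself.

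The study profiled FACS-sorted microglia with droplet-based single-cell RNA-seq, giving 2 libraries. The WT library and the library labelled IRF8KO each pooled 3 female C57BL/6 mice aged 3 months, without treatment, after isolation without enzymes. IRF8 is a transcription factor of the myeloid lineage, and the labels do not name the knockout allele. Each genotype is 1 library and 1 pool, so no value has a replicate, no test of genotype was possible, and every interval below is an exact 95% interval that covers counting error only.

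TGF-beta is made as a latent ligand that is held inactive by its own propeptide. In microglia the protein NRROS anchors this latent complex at the cell surface, and integrins that contain the alpha v chain release the ligand. The freed ligand joins the type II receptor TGFBR2 to the type I receptor TGFBR1, which phosphorylates SMAD2 and SMAD3; these pair with SMAD4 and act on genes in the nucleus. SMAD7 blocks the receptor and is itself induced by the signal, and SKI holds SMAD complexes in a repressed state. Microglia need TGF-beta for their mature identity, including expression of Sall1.

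Cells entered with at least 1000 UMIs, 500 genes and at most 10% mitochondrial UMIs, and with under 2% of UMIs in the neutrophil genes Camp, Ngp, S100a8, S100a9, Lcn2 and Ltf. This left 3304 of 3504 WT barcodes and 5007 of 5303 IRF8KO barcodes. The neutrophil rule removed 0 WT cells and 98 IRF8KO cells, and no remaining cell exceeded 0.232% in these genes, while 1 of the removed cells lay between 2% and 3%. Kept cells summed to 18543061 UMIs in WT (median 3204.5 per cell) and 18980263 in the library labelled IRF8KO (median 2933). The libraries shared 5 cell barcodes. Irf8 itself stood at 794 CPM in WT against 669 CPM in IRF8KO cells, as cells of the library labelled IRF8KO are called here, a log2 ratio of -0.25 that became 0.0064 under TMM scaling. The genotype entry of that sample reads WT, so the group rests on its title. Where the Irf8 UMIs lie within the gene was not examined, so their level leaves that title unchecked. All 8 microglia markers were detected in both libraries (25898 CPM in sum in WT, 11540 in IRF8KO cells), while 7 border macrophage markers summed to 12.4 CPM in WT and 2642 CPM in IRF8KO cells. The part of such a change of cell state in the values below was not tested.

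Each ratio is the log2 of the IRF8KO level divided by the WT level, and negative ratios mean less in the library labelled IRF8KO. The median ratio over the 8859 genes that reached 10 CPM was -0.28, and 74.9% of them were lower. All 10 members were lower on this scale, with a median of -0.41 and a range from -1.52 to -0.12. Ski became higher, and 9 members stayed lower, under TMM scaling, median-of-ratios size factors and totals without mitochondrial and ribosomal protein genes. Under TMM scaling 51.8% of all genes were lower, as were 54.0% and 62.6% under the other 2 of these scalings. Set against that of all genes, the members' median was -0.13. The interval of 3 members (Nrros, Itgav and Smad3) held the all-gene median, 6 lay below it and Ski lay above it. The same count over all genes was not made, so these positions describe each member alone. A single member, Smad7, was at least 2-fold lower, against 9.28% of all genes, and 0 members were at least 2-fold higher, against 5.61%.

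**Figure D1:**
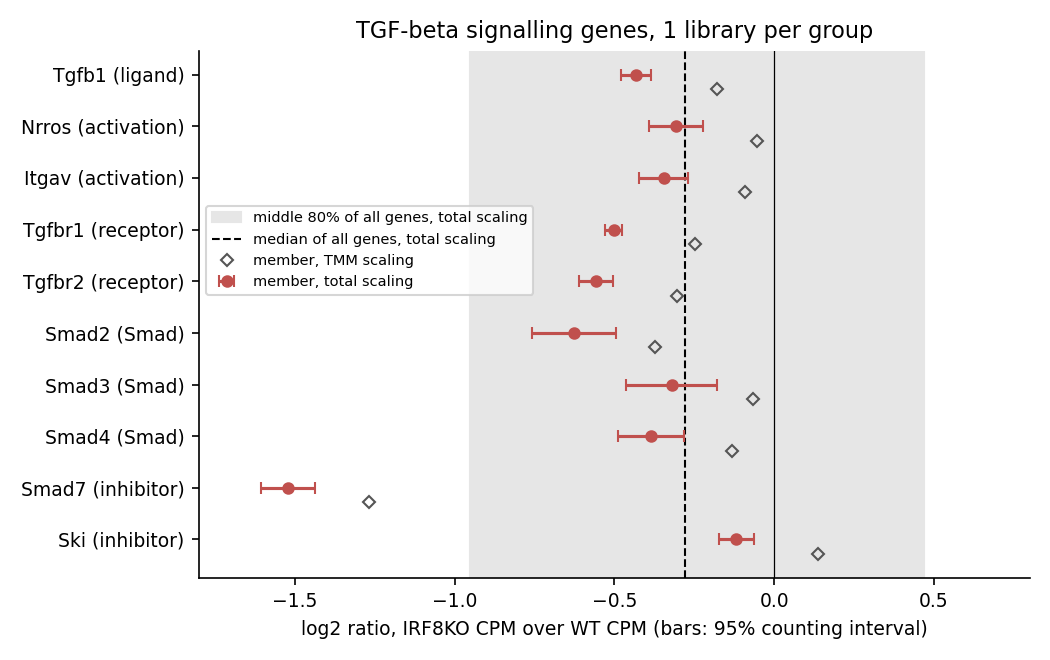
Log2 ratio of IRF8KO over WT CPM for each of the 10 members (red points, bars are 95% counting intervals), with the same under TMM scaling (open diamonds); the grey band is the middle 80% of all genes and the dashed line their median of -0.28. Smad7 at -1.52 is the member outside the grey band.

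The ligand gene was lower by a little more than the median gene. Tgfb1 (chromosome 7, 25687002 to 25705077, + strand, GRCm38), which encodes the main TGF-beta of microglia, had 8237 WT UMIs and 6246 in the library labelled IRF8KO. These are 444 CPM (435 to 454) and 329 CPM (321 to 337), a log2 ratio of -0.43 (-0.48 to -0.39) that is -0.15 relative to all genes. IRF8KO cells thus carried 74.1% of the WT level. The other ligand genes of the pathway contributed almost nothing: Tgfb2 had 6 and 13 UMIs and Tgfb3 had none in either library.

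The genes that anchor and release the ligand stood close to the median of all genes. Nrros (chromosome 16, 32142785 to 32165594, - strand) was at 137 CPM in WT against 110 CPM in IRF8KO cells, a log2 ratio of -0.31 (-0.39 to -0.22). Itgav (chromosome 2, 83724397 to 83806916, + strand), the alpha v integrin chain, was at 168 CPM and 132 CPM, a ratio of -0.35 (-0.42 to -0.27). Both intervals include -0.28, so neither gene stood apart from the typical gene beyond counting error.

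The beta chains that can pair with alpha v differed in their ratios. Itgb1 was at 358 CPM in WT against 354 CPM in IRF8KO cells, a ratio of -0.02 whose interval includes 0, and Itgb5 was at 1212 and 860 CPM, a ratio of -0.49. Itgb3 was lower, with 37.8 CPM against 12.6 CPM and a ratio of -1.58. Itgb8, whose product pairs with alpha v to activate TGF-beta, had a single UMI in each library, and Itgb6 had none. Lrrc32, the relative of Nrros that anchors latent TGF-beta on regulatory T cells, had no UMI either.

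Both receptors were lower by more than the median gene and by similar amounts. Tgfbr1 (chromosome 4, 47353222 to 47414931, + strand) had 27169 WT UMIs and 19645 in the library labelled IRF8KO. This is 1465 CPM (1448 to 1483) against 1035 CPM (1021 to 1050). Its ratio was -0.50 (-0.53 to -0.47). Tgfbr2 (chromosome 9, 116084293 to 116175360, - strand) was at 370 CPM (361 to 379) and 251 CPM (244 to 259), a ratio of -0.56 (-0.61 to -0.50). IRF8KO cells kept 70.6% of the WT level of Tgfbr1 and 68.0% of that of Tgfbr2.

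The start-site windows of the receptor genes are shown with those of Sall1 and of the coreceptor gene Eng. The first pair was less than 2-fold lower and the second pair was far lower. Windows run from 250 bases before to 50 after a RefSeq start site (GRCm38.p6), 5′ to 3′ on the gene's strand, and 7 of 10 members had at least 1 window in the table used. Capitals mark matches on either strand to CAGAC, the short Smad motif, or to GAGGAAGT, a motif of the myeloid factor PU.1; these motifs do not overlap in the windows shown.
Tgfbr1, chr4:47352972-47353271, + strand: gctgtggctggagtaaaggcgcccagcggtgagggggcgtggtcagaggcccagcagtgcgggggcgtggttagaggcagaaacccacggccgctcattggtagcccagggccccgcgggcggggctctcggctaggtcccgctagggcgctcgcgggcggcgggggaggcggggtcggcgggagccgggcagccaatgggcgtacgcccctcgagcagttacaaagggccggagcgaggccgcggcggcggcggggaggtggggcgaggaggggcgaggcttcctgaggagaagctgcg
Tgfbr2, chr9:116175314-116175613, - strand: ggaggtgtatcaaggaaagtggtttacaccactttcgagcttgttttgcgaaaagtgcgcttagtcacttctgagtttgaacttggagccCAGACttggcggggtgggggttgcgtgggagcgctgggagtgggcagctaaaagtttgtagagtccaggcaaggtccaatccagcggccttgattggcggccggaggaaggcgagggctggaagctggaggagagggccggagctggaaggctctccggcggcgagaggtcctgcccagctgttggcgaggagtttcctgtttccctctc
Sall1, chr8:89044113-89044412, - strand: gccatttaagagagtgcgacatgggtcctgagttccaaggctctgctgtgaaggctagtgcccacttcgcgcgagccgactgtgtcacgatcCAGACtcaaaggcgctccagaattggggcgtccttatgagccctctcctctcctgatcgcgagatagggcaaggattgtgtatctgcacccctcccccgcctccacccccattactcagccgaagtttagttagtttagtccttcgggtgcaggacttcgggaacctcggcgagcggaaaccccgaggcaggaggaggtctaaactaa
Eng, chr2:32646345-32646644, + strand: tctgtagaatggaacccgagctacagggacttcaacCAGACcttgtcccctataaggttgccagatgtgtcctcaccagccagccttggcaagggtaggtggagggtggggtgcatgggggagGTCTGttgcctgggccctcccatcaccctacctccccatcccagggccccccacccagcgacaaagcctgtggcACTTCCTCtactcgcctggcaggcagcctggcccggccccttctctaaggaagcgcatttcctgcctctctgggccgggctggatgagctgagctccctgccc
The Smad motif was found 1 time in the windows of Tgfbr2 and Sall1, 2 times in that of Eng and 0 times in that of Tgfbr1. Of 32851 windows of this length, 49.6% held it, so its presence does not set these genes apart. The PU.1 motif was found in the Eng window and in 3.2% of all windows. The longer Smad palindrome GTCTAGAC (0.213% of windows) and the Ets-IRF composite element (2.72%) were searched on both strands and were in none of the 4. Tgfbr1 has 1 further window and Sall1 has 2 in the table, which are not printed. The further window of Tgfbr1 holds the Smad motif 1 time, and those of Sall1 hold it 0 times.

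The Smads that carry the signal were lower, but less than 2-fold. Smad2 (chromosome 18) was at 64.3 CPM (60.7 to 68.0) in WT and 41.6 CPM (38.8 to 44.6) in IRF8KO cells, a ratio of -0.63 (-0.76 to -0.50). Smad3 (chromosome 9, 63646767 to 63757994, - strand) was at 48.3 CPM and 38.7 CPM, a ratio of -0.32 (-0.46 to -0.18). Their intervals do not overlap, so the receptor-activated Smads differed in their ratios by more than counting error. Smad4 (chromosome 18), the shared partner, was at 93.6 CPM and 71.7 CPM, a ratio of -0.39 (-0.49 to -0.28).

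The inhibitors differed widely in their ratios. Smad7 (chromosome 18), the feedback inhibitor, had 4330 WT UMIs and 1543 in the library labelled IRF8KO. This is 234 CPM (227 to 241) against 81.3 CPM (77.3 to 85.5), or 34.8% of the WT level. Its log2 ratio of -1.52 (-1.61 to -1.44) was at the 4.35 percentile of all genes, and ran from -1.57 to -1.27 over the scalings, cell filters and pseudocount tried. Ski (chromosome 4, 155154075 to 155222592, - strand), the corepressor, was at 301 CPM (293 to 309) and 277 CPM (270 to 285), 92.2% of WT. Its ratio was -0.12 (-0.17 to -0.06), which is 0.16 above the median of all genes and changes sign under the 3 scalings named before.

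The make-up of the members' own UMIs does not depend on how libraries are scaled. The 10 genes held 61640 UMIs in WT, 0.332% of all, and 44957 in the library labelled IRF8KO, 0.237%. Smad7 took 7.02% of the members' UMIs in WT (6.82 to 7.23) and 3.43% in IRF8KO cells (3.27 to 3.60). Ski took 9.05% and 11.7%. Tgfbr1 kept its place, at 44.1% (43.7 to 44.5) and 43.7% (43.2 to 44.2). Set against the receptor, there were 15.9 Smad7 UMIs per 100 Tgfbr1 UMIs in WT and 7.85 in IRF8KO cells, while Tgfb1 had 30.3 and 31.8. Among the 10 members, Smad7 was the one whose proportion to Tgfbr1 differed by over 2-fold.

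To count cells with a UMI, each cell was thinned to 2000 UMIs, which left 3019 WT and 4509 IRF8KO cells and dropped 285 and 498 shallower ones. A Smad7 UMI was found in 35.2% of WT cells (33.5 to 36.9) and 13.6% of IRF8KO cells (12.6 to 14.6), or 55.0% and 23.7% without thinning. Tgfbr1 was found in 93.0% and 84.2% of thinned cells (96.9% and 91.5% without thinning), and Tgfb1 in 56.4% and 47.0% (75.1% and 62.5%). Smad7 was thus found in far fewer cells of a library in which most cells still showed the receptor.

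The remaining shares were also lower in IRF8KO cells. Tgfbr2 was found in 51.5% of thinned WT cells and 37.7% of IRF8KO cells, Nrros in 24.1% and 19.8%, and Itgav in 27.3% and 22.4%. For the Smads the shares were 12.3% and 7.74% (Smad2), 8.74% and 7.30% (Smad3), and 15.9% and 13% (Smad4). Ski was found in 43.1% and 40.7%. The intervals of Smad3 (7.76 to 9.81 and 6.55 to 8.09) overlap, as do those of Ski (41.3 to 44.9 and 39.3 to 42.1). Such overlap does not show that the shares were alike, and no interval of their difference was computed.

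The neutrophil marker cells of the library labelled IRF8KO served as a comparison type, 97 of them after thinning, with a median of 7058 UMIs before it. They had a Tgfbr1 UMI in 10.3%, a Tgfb1 UMI in 12.4% and a Smad7 UMI in 2.06% of cells, all below the IRF8KO shares. For Smad2 and Smad4 they reached 6.19% (2.30 to 13) and 7.22% (2.95 to 14.3), and for Smad3 3.09% (0.642 to 8.77). The IRF8KO shares of these 3 Smads lay within those intervals, so these shares of cells could not be told from those in the other cell type. Summed levels use all UMIs of the cells, here 98 neutrophil marker cells, and their intervals leave out the spread between cells. A single neutrophil marker cell held up to 3 of the 10 Smad3 UMIs, 6 of the 34 Smad4 UMIs and 3 of the 29 Smad2 UMIs. Smad3 was at 38.7 CPM (35.9 to 41.6) in IRF8KO cells against 11.9 CPM (5.69 to 21.8) in neutrophil marker cells, and Smad4 at 71.7 CPM (67.9 to 75.6) against 40.3 CPM (27.9 to 56.4). The intervals of Smad2 overlapped at this level too (38.8 to 44.6 and 23.0 to 49.4 CPM).

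**Figure D2:**
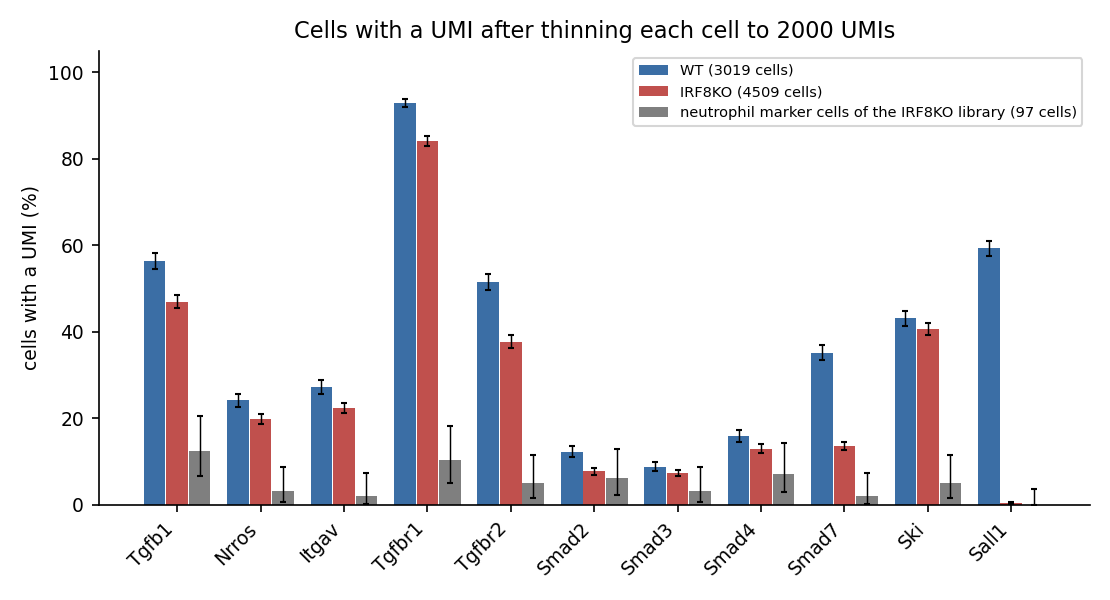
Percent of cells with at least 1 UMI of each member and of Sall1 after thinning each cell to 2000 UMIs, for WT, IRF8KO and neutrophil marker cells (bars are 95% binomial intervals). Every member is below WT in IRF8KO cells, Smad7 by the widest margin (35.2% against 13.6%), while Sall1 goes from 59.3% to 0.466%.

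Most cells of both libraries could be seen to carry several members. The median thinned WT cell had UMIs of 4 members (quartiles 3 and 5), and the median IRF8KO cell of 3 (quartiles 2 and 4). Only 0.298% of WT and 1.69% of IRF8KO cells had none, against 60.8% of neutrophil marker cells. Both receptor transcripts were found in 48.1% of WT cells (46.3 to 49.9) and 32.4% of IRF8KO cells (31.0 to 33.8). The ligand together with both receptors was found in 28% and 15.4%. No member was concentrated in few cells: the 50 cells with most UMIs of a gene held 7.4% to 15.3% of its UMIs in the library labelled IRF8KO, and 13.6% to 20.9% in WT.

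Cells were clustered without the 10 members among the variable genes, and 6 clusters had at least 50 cells, 3 almost wholly WT (clusters 0 to 2) and 3 almost wholly IRF8KO (clusters 3 to 5). Clusters 6 and 7, with 20 and 45 cells, are not described. Of the IRF8KO clusters, cluster 3 (2487 IRF8KO cells) had Cxcl2, Runx3 and Ms4a7 among its leading genes, cluster 4 (2277) had Cck, Clec12a, Apoc1, Igf1 and Mrc1, and cluster 5 (185) had the interferon genes Cxcl10, Rsad2 and Ifit2. These values are descriptions, since clusters were made from the same cells.

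Smad7 was at 78.0 CPM (72.9 to 83.3) in cluster 3, 88.4 CPM (81.1 to 96.2) in cluster 4 and 77.3 CPM (60.0 to 98.0) in cluster 5. The WT clusters 0 and 1 held 223 and 252 CPM. Every IRF8KO cluster was thus far below both large WT clusters, with ratios to all WT cells of -1.58, -1.40 and -1.60. All 10 members were below the WT level in each of the 3 clusters, where 74.9%, 74.7% and 70.9% of all genes were. Smad7 was the single member at least 2-fold lower in each, against 9.65%, 9.64% and 13.8% of genes. In these clusters 0 members were at least 2-fold higher, where 5.82%, 4.39% and 7.21% of genes were.

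At this resolution the interferon cluster had the lowest ligand and receptor levels of the 3. Tgfb1 was at 272 CPM (238 to 308) there, against 329 and 339 CPM in clusters 3 and 4. Tgfbr1 was at 941 CPM (878 to 1007), against 1030 and 1063 CPM. At Leiden resolution 1.0 the order differed, with the lowest Tgfb1 (270.5 CPM, 227 to 320) in a cluster led by Klra17 and Lipg, and the lowest Tgfbr1 (880 CPM, 791 to 977) in a cluster led by Egr3 and Lgals3. Between the large IRF8KO clusters, the intervals of Smad3, Ski and Tgfbr2 did not overlap. The share of all genes that differ in this way was not computed, so this describes these genes only. Smad3 was at 42.5 CPM (38.8 to 46.4) in cluster 3 and 32.9 CPM (28.5 to 37.9) in cluster 4. Ski was at 289 CPM (279 to 299) and 251 CPM (238 to 264). Tgfbr2 had the opposite order, at 244 CPM (235 to 254) in cluster 3 and 267 CPM (254 to 280) in cluster 4.

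Among WT cells, cluster 1, whose 323 cells had a median of 17369 UMIs, held slightly more of several members than cluster 0. The intervals of Tgfb1, Tgfbr2, Smad3, Smad4, Smad7 and Ski did not overlap between these clusters. Those of Nrros, Itgav, Tgfbr1 and Smad2 did, and the share of all genes that differ in this way was not computed. Smad7 was at 252 CPM (240 to 264) in cluster 1 and 223 CPM (214 to 232) in cluster 0. Smad4 was at 108 CPM (101 to 116) in cluster 1 and 84.2 CPM (78.9 to 89.8) in cluster 0. Cluster 2 was a small group of 69 WT cells with a median of 1280 UMIs and many non-coding genes among its leading genes. It had more Tgfbr1 (1930 CPM, 1659 to 2233) and Itgav (299 CPM, 198 to 432) and less Ski (149 CPM, 81.6 to 251) than the other WT clusters, and a single Smad3 UMI. The depth of these cells and their state cannot be told apart.

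**Figure D3:**
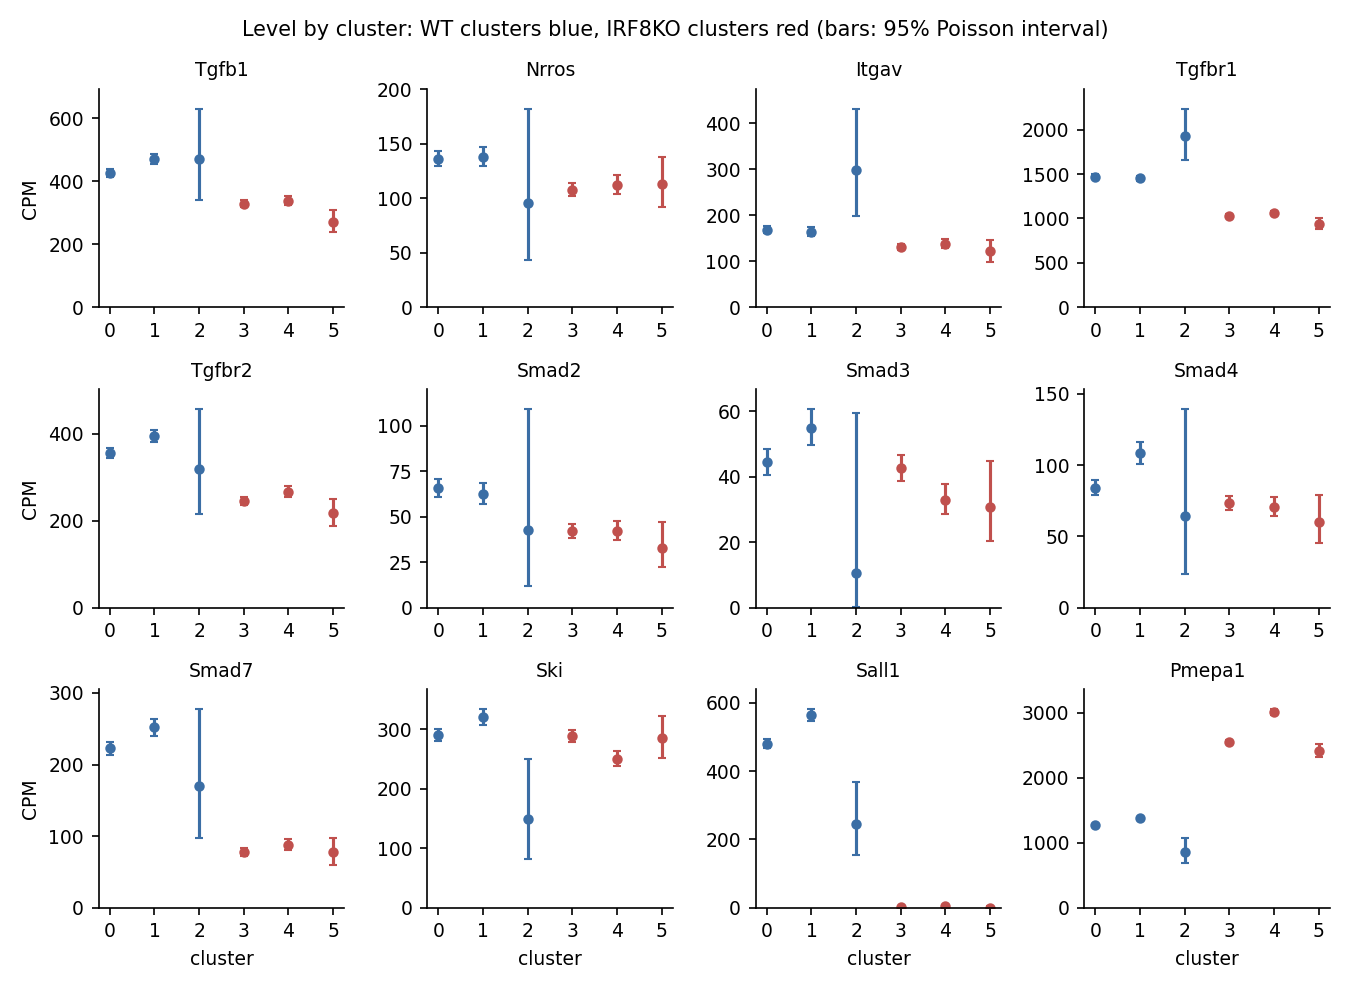
Level in CPM of the 10 members, Sall1 and Pmepa1 in each cluster of at least 50 cells (blue WT clusters 0 to 2, red IRF8KO clusters 3 to 5, bars are 95% Poisson intervals, each axis starts at 0). Smad7 lies between 77.3 and 88.4 CPM in the red clusters and at 171 CPM or above in the blue ones, and Pmepa1 shows the opposite order.

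Cells were next compared within bands of depth. Within bands of 2000 to under 4000, 4000 to under 8000, and 8000 UMIs or more, all 10 members had less in IRF8KO cells than in WT cells, where 73.8%, 74.6% and 70.9% of genes were. Smad7 stood at -1.48, -1.61 and -1.51 in these bands, and was the single member past 2-fold (9.09%, 10.5% and 8.85% of genes). In cells of 1000 to under 2000 UMIs, 8 members were lower (58.4% of genes) and Smad7 stood at -0.96 (-1.37 to -0.55), with 105 WT and 100 IRF8KO UMIs behind it. No member was past 2-fold in that band, where 13% of genes were. Tgfbr1 ran from -0.57 to -0.47 over the 4 bands. Tgfbr2 did not differ in the shallowest band beyond counting error, with 126 WT and 233 IRF8KO UMIs and an interval from -0.32 to 0.32 that excludes its ratio of -0.56 over all cells. Smad3 and Ski stood at 0.62 and 0.16 there, with intervals that include 0.

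**Figure D4:**
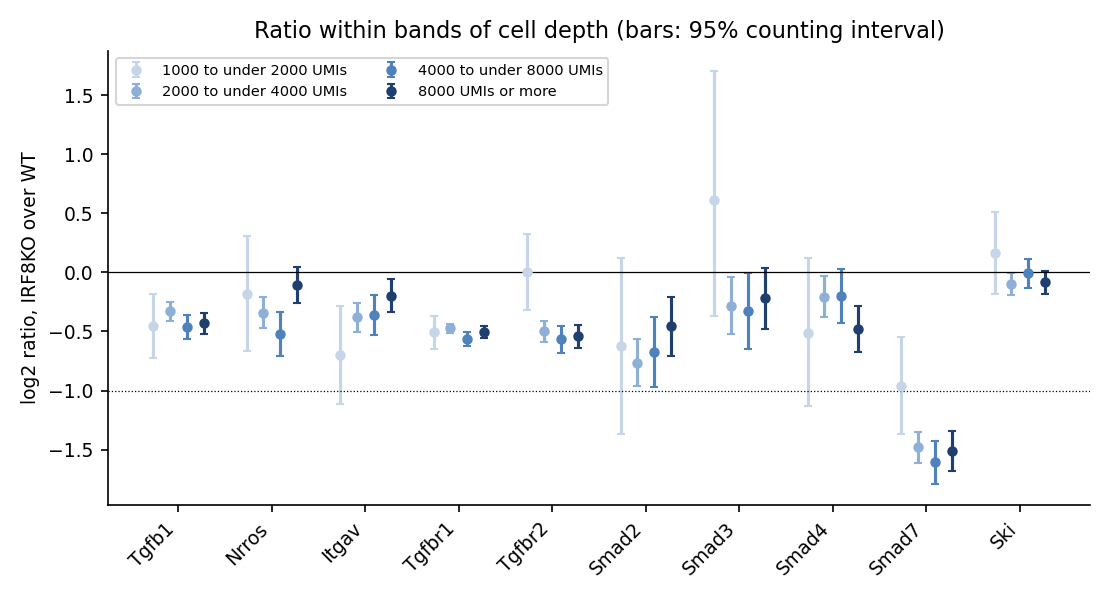
Log2 ratio of IRF8KO over WT for each member within 4 bands of UMIs per cell (bars are 95% counting intervals; the dotted line marks 2-fold lower). Smad7 lies near -1.5 in the 3 deeper bands, and the shallowest band has the widest intervals.

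Beside this pathway stood the loss of Sall1. Sall1 had 9469 WT UMIs and 54 in the library labelled IRF8KO, 511 CPM against 2.85 CPM. Its log2 ratio of -7.49 (-7.90 to -7.10) contrasts with -0.50 and -0.56 for the receptors and with -0.63 to -0.32 for Smad2, Smad3 and Smad4. Transcript levels do not report receptor activity or Smad phosphorylation, which were not measured.

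Among IRF8KO cells, 31 held the 54 Sall1 UMIs. Some other genes stood nearer to WT in these cells. P2ry12, a purine receptor of microglia, was at 1920 CPM (1712 to 2147) in them and 614 CPM in the 4976 cells without a Sall1 UMI. The sugar transporter gene Slc2a5 was at 187 and 31.6 CPM, and Apoe was at 37410 and 88754 CPM. The SMAD target genes Tgfbi (281 and 316 CPM) and Pmepa1 (2381 and 2681 CPM) stayed near the level of the other IRF8KO cells. In WT these 2 genes were at 31.3 and 1306 CPM. Smad7 had 16 UMIs and 99.7 CPM (57.0 to 162) in cells with Sall1 and 81.1 CPM in cells without, below the 234 CPM of WT in both. Its ratio between them had an interval from -0.51 to 1.0, too wide to tell whether it differed. Tgfbr1 was slightly higher in cells with Sall1 (1234 CPM, 1068 to 1419, against 1033 CPM), as was Itgav (224 CPM, 157 to 311, against 131 CPM). For the other members the interval of the ratio included 0, which with 4 to 61 UMIs does not show that they were alike. The median depth was 3453 UMIs in cells with a Sall1 UMI and 2931 in those without.

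WT cells thinned to 2000 UMIs held 0.962 Sall1 UMIs each on average, with a variance 1.15 times the mean (8.78 times without thinning). At this depth a WT cell that expresses Sall1 can show no UMI of it. The part of sampling in this split was not tested. The 1791 cells with and 1228 cells without one are therefore given as values only. Smad7 was at 216 CPM (201 to 232) with Sall1 and 230 CPM (212 to 250) without, and the log2 ratios of the 10 members ran from -0.10 to 0.10, all with intervals that include 0. Apoe was at 366 and 538 CPM, a ratio of -0.55 (-0.67 to -0.44). Eng stood at 0.27 (0.02 to 0.52), Pmepa1 at 0.09 (0.02 to 0.15) and P2ry12 at 0.05 (0.01 to 0.09). The intervals of Slc2a5, Acvrl1 and Tgfbi included 0.

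The rest of the pathway was followed through 95 further genes in 6 lists, of which 62 had at least 10 CPM in a library. Of these 62, 15 were at least 2-fold lower (9.28% of all genes were) and 7 at least 2-fold higher (5.61%). Under TMM scaling, median-of-ratios size factors and totals without mitochondrial and ribosomal protein genes, 12 of 63 were at least 2-fold lower. Under these scalings 6.05%, 6.21% and 7.09% of all genes were. With all deposited barcodes or all kept cells, 6 of 62 were at least 2-fold higher, where 5.96% and 5.97% of all genes were. In the list of Smads, cofactors and turnover genes, 21 of 23 stayed within 2-fold, as did most genes, since 14.9% of all were past it either way. The median of this list was -0.34, against -0.28 for all genes. The exceptions were Smurf1, a ubiquitin ligase that acts with SMAD7 on the receptor, at -1.47 (-1.69 to -1.25), and the corepressor gene Tgif2 at -1.40. Skil, a relative of Ski that is also induced by the signal, was at 308 and 278 CPM, a ratio of -0.15 that also changes sign under the 3 scalings (0.11 with TMM). Smad1, a Smad of the BMP branch, was at -0.93, and Tab2, an adaptor of the kinase TAK1, at -0.89.

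Of 8 receptor genes of the wider family, 7 were lower (74.9% of all genes were) and 4 at least 2-fold (9.28%), with a median of -0.87. Bmpr1a, a BMP receptor gene at -0.20, is the one of the 7 within the shift of 0.26 that TMM scaling brings, so its direction depends on the scaling. Eng, which encodes the coreceptor endoglin, went from 104 CPM to 12.3 CPM, a ratio of -3.08 (-3.28 to -2.88). Acvrl1, which encodes the type I receptor ALK1 that works with endoglin, had 537 WT UMIs and 12 IRF8KO UMIs, a ratio of -5.52 (-6.48 to -4.70). The activin and BMP receptor genes Acvr1 and Acvr1b followed at -1.33 and -1.06, and Acvr1b was less than 2-fold lower under TMM scaling (-0.80). Both Eng and Acvrl1 are also known from endothelial cells. The 5 endothelial markers summed to 60.7 CPM in WT and 27.3 CPM in IRF8KO cells, and Cldn5, the defining one, had no UMI in either. Within that list Pecam1 went from 52.0 CPM to 3.64 CPM and Flt1 from 0.485 CPM to 19.2 CPM, and their part in the values of Eng and Acvrl1 was not tested. Tgfbr3, the coreceptor betaglycan, had 1 WT UMI and none in the other library.

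Extracellular activators differed in direction. Of 14 listed genes for latency and activation, 6 had at least 10 CPM, with a median of -0.26. Thbs1, which encodes thrombospondin 1, a protein able to activate latent TGF-beta, was at 7.60 CPM in WT against 84.8 CPM in IRF8KO cells, a ratio of 3.48 (3.23 to 3.74). The metalloprotease gene Mmp14 was at 20.9 and 59.6 CPM, a ratio of 1.51. Furin, whose product cleaves the TGF-beta precursor, was at -0.55. Among latent TGF-beta binding proteins, Ltbp1 had 2 and 0 UMIs and Ltbp3 had 26 and 144.

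Thbs1 was uneven between the IRF8KO clusters, at 117 CPM in cluster 3, 17.5 CPM in cluster 4 and 84.1 CPM in cluster 5. Thbs1 is among the leading genes of cluster 3, so its level there is part of how that cluster is described.

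Genes that SMAD complexes are known to induce in many cell types were in part higher and in part lower. Of 9 such genes with at least 10 CPM, 5 were at least 2-fold higher (5.61% of all genes were), 0 were at least 2-fold lower (9.28%), and the median was 1.04. Pmepa1, a further feedback inhibitor, had 24222 WT UMIs and 50831 in the library labelled IRF8KO, 1306 and 2678 CPM, a ratio of 1.04 (1.01 to 1.06) that is also the median of the list. It was under 2-fold with all deposited barcodes and with all kept cells, at 0.98 in both. Tgfbi, which encodes a secreted matrix protein induced by TGF-beta, was at 31.3 and 316 CPM, a ratio of 3.33 (3.21 to 3.46). The transcription factor genes Bhlhe40, Klf10 and Id2 stood at 6.54, 1.89 and 1.09. The other 4 of the 9 were lower, where 74.9% of all genes were. They were Ldlrad4 (-0.59), Cdkn1a (-0.47), Junb (-0.33) and Spsb1 (-0.05, with an interval from -0.17 to 0.06). Smad7 and Skil, also induced by the signal, are not in this list and stood at -1.52 and -0.15.

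Microglia genes known to need TGF-beta form a list that shares genes with the microglia markers and was chosen with their levels known. Of 16, 13 were lower (74.9% of all genes were) and 8 at least 2-fold (9.28%), and the median was -1.0. After Sall1 the lowest were Slc2a5 at -3.56, P2ry12 at -2.57 and Pros1, the gene of the anticoagulant ligand protein S, at -2.45. The range within the list was wide, since Olfml3 and Fcrls stood at 0.07 and 0.08 and Gas6 at 0.70.

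**Figure D5:**
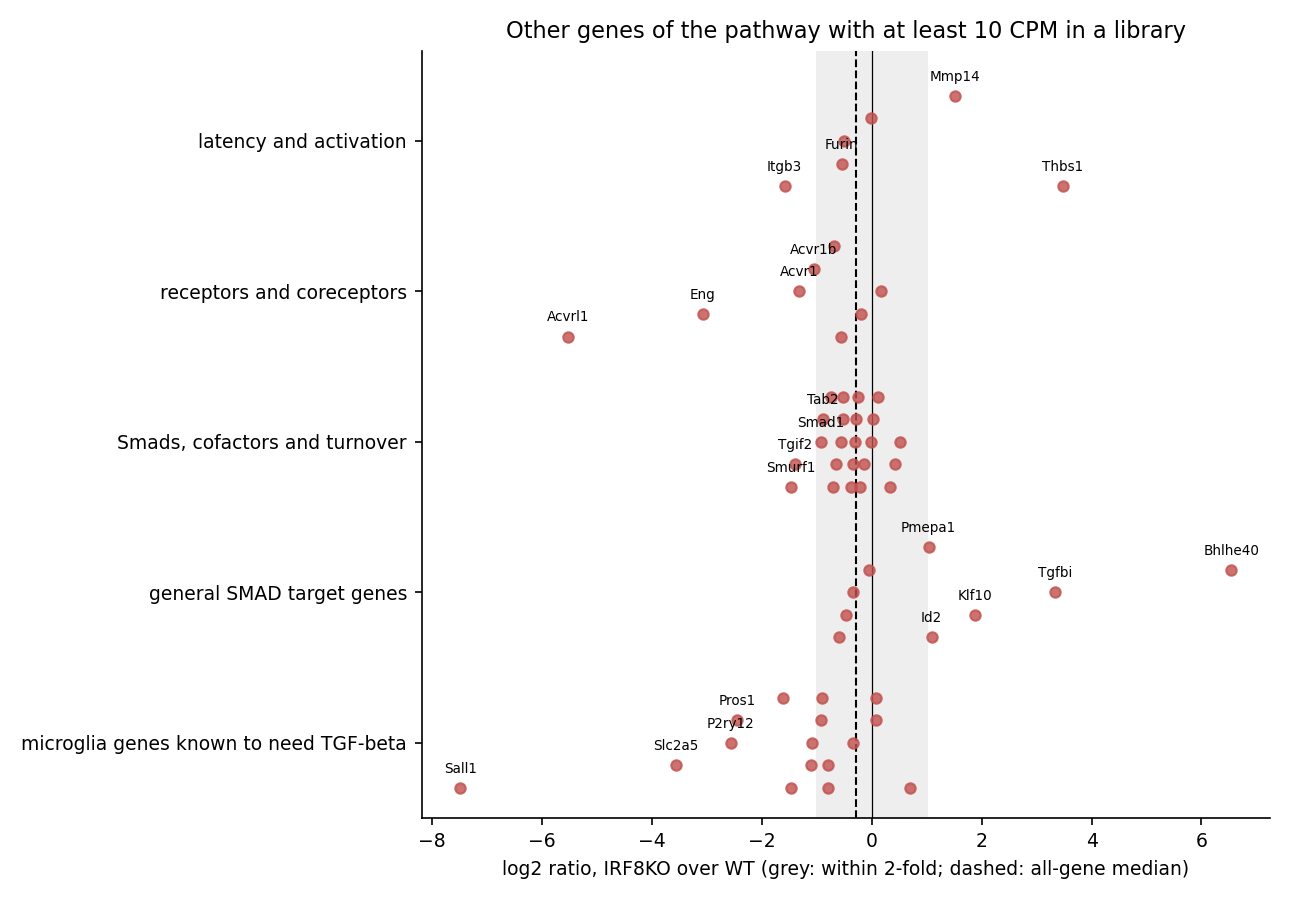
Log2 ratio of IRF8KO over WT for the 62 other pathway genes that reached 10 CPM in WT or IRF8KO cells, by list (the grey band is within 2-fold, the dashed line the median of all genes). Smads and cofactors lie mostly inside the band, and Eng and Acvrl1 far to the left. Of 9 general SMAD target genes, 5 lie to the right of the band, Tgfbi and Pmepa1 among them, and 4 inside it.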

How the data were processed

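Sorted mouse microglia were measured in 1 WT library and 1 library labelled IRF8KO. The authors deposited raw UMI counts per gene and barcode; Cell Ranger 3.1, Scanpy and build mm10 are named in the submitters' processing notes, and software version 3.1.0 per the file headers. For the annotation and cell calling, the sources used here give nothing. The labels' protocols also name a full-length kit, while the files have the form of droplet counts. Counts were summed over kept cells and scaled by the total to CPM. Where a count was 0, a floor of 3 counts over the group was used for ratios. No gene is divided by length, since UMIs mark transcript ends, so levels are compared between libraries and not between genes. Gene positions come from GENCODE M21 (GRCm38), where no other listed feature overlaps a member.

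Intervals are exact Poisson (CPM), conditional binomial (ratios) and Clopper-Pearson (shares). Thinning drew UMIs without replacement. Clustering used scanpy 1.11.5 with 2000 variable genes, 30 components, 15 neighbours and Leiden resolution 0.5. Doublet calling marked 0 WT and 2 IRF8KO cells, too few to work, so an alternative left out the 87 and 201 cells of highest score. TMM factors came from edgeR 4.0.16; no test was run with it. Ratio and thinning steps were tested on simulated data. The members and lists were chosen with earlier results of these data known. Genes named are the members, Irf8, Sall1, the 4 largest ratios per list, and fixed integrin, anchor, ligand and coreceptor genes. Pmepa1, Skil, Bmpr1a, Olfml3, Fcrls, Gas6, Apoe, Pecam1 and Flt1 were chosen after their values were seen. So were Ldlrad4, Cdkn1a, Junb, Spsb1 and the genes in the closing section.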

Additional observations from a re-analysis of the deposited data

How the results depend on the processing

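No paired analysis was possible because each genotype is 1 library, so there was also no replicate to leave out. The members' median ratio moved from -0.41 to -0.16 under TMM scaling, -0.18 under median-of-ratios size factors and -0.26 when mitochondrial and ribosomal protein genes were left out of the totals, and these settings moved the median of all genes by 0.26, 0.24 and 0.15. Relative to all genes it ran from -0.15 to -0.12 over the 10 scalings and cell filters tried. Under the same 3 settings Ski changed sign to 0.14, 0.11 and 0.032, and Skil to 0.11, 0.084 and 0.0016. Irf8 went to 0.0064, -0.015 and -0.098, and to -0.17 with totals without the 10 most abundant genes, -0.19 with equal weight for each cell, -0.30 with all deposited barcodes and -0.30 with all kept cells; the cause of the last 3 was not tested. At 1.5-fold, 2 members (Smad2 and Smad7) were lower, where 22.7% of genes were. Without a minimum CPM, 13 of 75 other pathway genes above the floor of counts were at least 2-fold higher, since more genes enter. The share of all genes at least 2-fold higher was not computed for that setting. At Leiden resolution 1.0 the highest Smad7 ratio of an IRF8KO cluster was -1.23, and 1 cluster of 152 cells had 2 members at least 2-fold lower. For that cluster the share of all genes was not computed. Depth limits the Smads most, with 734 to 1736 UMIs each in a library.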

Other observations

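Some pathway genes lay under 10 CPM in both libraries but were counted in 1 of them far more often. Bmp2, a ligand of the BMP branch, had no WT UMI and 124 in the library labelled IRF8KO, at least 40.4-fold higher when WT is set to the group floor of 3 counts. Ltbp3, a latent TGF-beta binding protein gene, had a ratio of 2.44. Fn1, the fibronectin gene, had 12 UMIs in WT and 118 in IRF8KO cells. In the opposite direction, Itgae, an integrin alpha chain gene known as a TGF-beta target in T cells, had 46 and 7 UMIs, a ratio of -2.75 (-4.14 to -1.59).

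The transcriptional repressor genes Zeb1 and Zeb2 differed in direction, at 0.42 (0.31 to 0.52) and -0.52 (-0.56 to -0.49). Tgif1 and Tgif2 did so too, with Tgif1 at 0.52 (0.39 to 0.66) and Tgif2 at -1.40 (-1.73 to -1.07). Fkbp1a, whose product binds the type I receptor, stood at 0.34 (0.25 to 0.43). Differences between these pairs do not depend on how the libraries are scaled.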
